A study of Mus musculus with 13 samples.

Results

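The genes described are Rag1 and Rag2, which encode the V(D)J recombinase, and Dntt, which encodes terminal deoxynucleotidyl transferase. They were found by symbol in the deposited table of genes, where each has 1 entry, and are 3 of its 43629 genes. RNA was sequenced from 13 mouse thymus or thymic lymphoma samples in 3 groups. WT thymus came from 3 C57BL/6 mice, and these libraries were re-used from another series. Atm-/- lymphomas came from 5 mice of the 129S6/SvEv strain that lack the kinase ATM. Rag2c/c p53-/- lymphomas came from 5 mice whose background mixed C57BL/6 with 129S6/SvEv, which lack p53 and carry RAG2 shortened at its C terminus after residue 352. The ages of the mice were not given in the sources used here. Strain, series and disease go with the groups and cannot be told apart in any comparison with WT thymus. Strain also differs between the lymphoma groups and cannot be told apart from genotype there.

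RAG1 and RAG2 act as a complex that cuts DNA beside V, D and J segments, with RAG1 holding the catalytic site and RAG2 acting as its essential partner. Terminal transferase adds nucleotides without a template to the coding ends before the end-joining machinery seals them. In the thymus, all 3 genes are active in developing thymocytes, at the double negative and double positive stages, and are shut off as cells mature.

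Values are normalized counts, that is, read counts divided by a size factor for each library and rounded to whole numbers. The column totals lay between 19788898 and 21591289, so the totals do not show how deeply a library was sequenced. In 6 libraries at least 10 of the whole numbers from 1 to 30 did not occur, and the worth of 1 read could be estimated as 1.47 to 3.38 normalized counts. They were WT thymus replicate 2, Atm-/- lymphoma replicates 2, 3 and 4, and Rag2c/c p53-/- lymphoma replicates 2 and 4, so each group held both kinds of library. These libraries correspond to 6.37 to 13.7 M reads on genes, with the lowest estimate in Rag2c/c p53-/- lymphoma replicate 2. For the other 7 libraries, where at most 1 of these numbers did not occur, this could not be read from the values, and they listed between 19533 and 22338 genes above 0. WT thymus replicate 2, at an estimated 6.68 M reads, was the shallowest of the WT libraries.

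The genes altered in the mice were read first. Atm had 1990, 1559 and 2274 normalized counts in WT thymus and 732, 208, 445, 568 and 534 in Atm-/- lymphomas. The groups did not overlap, and Atm fell by 2.06 on the log2 scale (SE 0.42, limma adjusted p = 0.0017). Atm in Rag2c/c p53-/- lymphomas stood at 1248, 439, 1315, 552 and 1154. Atm also fell there, with a log2 fold change of -1.16 (SE 0.42, limma adjusted p = 0.0441). Between the lymphoma groups Atm overlapped and was not called (log2 fold change -0.89, SE 0.37, limma adjusted p = 0.135). The overlap came from Rag2c/c p53-/- replicates 2 and 4, the libraries of that group whose worth of 1 read could be estimated. Replicates 1, 3 and 5 stood above every Atm-/- lymphoma. The count over the whole gene thus does not set the Atm-/- lymphomas apart from all the other lymphomas. Trp53, the gene of p53, had 4387, 6341 and 4498 normalized counts in WT thymus and 2616, 5461, 2018, 3863 and 3884 in Rag2c/c p53-/- lymphomas. Those groups overlapped (log2 fold change -0.57, SE 0.29, limma adjusted p = 0.131), so the count over the whole gene does not check the p53-/- label. Which exons the alleles lack is not given in the sources used here, and reads from remaining exons would still be counted. In Atm-/- lymphomas Trp53 stood at 6853, 11318, 9340, 10202 and 6955, and it was higher than in Rag2c/c p53-/- lymphomas by 1.38 on the log2 scale (SE 0.25, limma adjusted p = 0.00328).

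WT thymus expressed all 3 genes at a high level. Rag1 (ENSMUSG00000061311) lies on the minus strand of chromosome 2 from 101638282 to 101649501 in GRCm38. It had 48182, 70834 and 51074 normalized counts in the 3 thymuses, the highest value of any gene in each of them. This was 0.274% of a WT library on average. Rag2 (ENSMUSG00000032864), its neighbour on the plus strand from 101624718 to 101632529, had 4199, 5409 and 4502. Dntt (ENSMUSG00000025014), on the plus strand of chromosome 19 from 41029275 to 41059523, had 16836, 23103 and 16482. Replicate 2 was the highest of the thymuses for each gene. Per kilobase of exon, the WT level was 8580 ± 1866 for Rag1, 8205 ± 1625 for Dntt and 1374 ± 184 for Rag2 (normalized counts per kb, SD, n = 3). On this scale Rag1 and Dntt did not differ beyond their spread, and Rag2 lay below both.

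Atm-/- lymphomas had much lower levels of both recombinase genes than WT thymus and a smaller decrease in Dntt. The comparison asks how these genes stand in tumors that arise without ATM, the kinase that responds to DNA breaks. Rag1 fell 11-fold and Rag2 fell 16.4-fold, while Dntt fell 2.10-fold. All 3 genes passed the test, where 17.0% of the 15872 genes tested were called lower and 12.6% were called higher. A gene was called at a limma adjusted p under 0.05, a change of at least 2-fold with 1 of the group means at 10 or more. Fold changes are on the scale of log2(value + 1). In bulk samples, fewer cells expressing a gene and less RNA per cell cannot be told apart.

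Rag1 had 6304, 5755, 5496, 7116 and 2383 normalized counts in the 5 Atm-/- lymphomas. The lowest WT thymus stood at 48182, so every lymphoma lay below every thymus, and replicate 5 was the lowest. The group mean was 5411 ± 1803 (SD, n = 5) against 56697 ± 12328 (SD, n = 3), a log2 fold change of -3.46 (SE 0.43, limma adjusted p = 5.17e-05). Of the 15872 genes tested, 4.17% had a lower log2 fold change. In rank, Rag1 went from the top of each WT library to places 557, 707, 766, 506 and 2526.

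Rag2 had 279, 1025, 265, 521 and 46 normalized counts in the same lymphomas. Replicate 2 was the highest and replicate 5 the lowest. No lymphoma reached the lowest thymus at 4199. The group mean was 427 ± 374 (SD, n = 5) against 4703 ± 630 (SD, n = 3), and the log2 fold change was -4.04 (SE 0.71, limma adjusted p = 0.000624). Replicate 5 carried part of this size, since without it the log2 fold change was -3.39, and the call was kept.

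Dntt had 5241, 12795, 10777, 11306 and 6699 normalized counts. Replicates 1 and 5 were low and the other 3 lay closer to the thymuses, the lowest of which was at 16482. Those other 3 are the libraries of this group whose worth of 1 read could be estimated, as it could in WT thymus replicate 2, the highest thymus. In Rag2c/c p53-/- lymphomas the libraries of this kind, replicates 2 and 4, had the lowest and the highest Dntt. Whether this split bears on Dntt was not tested. The group mean was 9364 ± 3226 (SD, n = 5) against 18807 ± 3725 (SD, n = 3), and the log2 fold change was -1.07 (SE 0.28, limma adjusted p = 0.00837). This is close to the threshold of 2-fold, and the call was lost without WT thymus replicate 2 (-0.91), without Atm-/- lymphoma replicate 1 (-0.88) and without Atm-/- lymphoma replicate 5 (-0.97). The adjusted p lay between 3.88e-05 and 0.0465 over all alternatives run.

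Rag2c/c p53-/- lymphomas also had lower recombinase levels than WT thymus. The comparison asks how the genes stand in tumors whose RAG2 lacks its C terminus and which lack p53. Rag1 fell 4.74-fold and Rag2 fell 9.32-fold. Dntt was 1.69-fold lower and was not called. Thus 2 of the 3 genes were called lower, where 13.9% of all genes tested were called lower and 9.77% higher. The WT libraries are shared with the comparison above, so these are not independent.

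Rag1 had 11239, 5620, 23493, 8465 and 18170 normalized counts in the 5 Rag2c/c p53-/- lymphomas. Replicates 3 and 5 were high, and replicate 3 was 4.18-fold above replicate 2, but none reached WT thymus. The lowest values, in replicates 2 and 4, came from the libraries of this group whose worth of 1 read could be estimated. WT thymus replicate 2, also of this kind, was the highest thymus, and in Atm-/- lymphomas the kinds overlapped. Whether this split bears on the spread of Rag1 was not tested. The group mean was 13397 ± 7317 (SD, n = 5), and the log2 fold change was -2.24 (SE 0.43, limma adjusted p = 0.00147). In rank, Rag1 stood at places 149, 798, 14, 328 and 28 of these libraries.

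Rag2 had 790, 260, 537, 410 and 695 normalized counts. All 5 values lay below every thymus. The group mean was 538 ± 213 (SD, n = 5), and the log2 fold change was -3.22 (SE 0.71, limma adjusted p = 0.0036). In replicate 2, the shallowest library, the value stands for an estimated 77.0 reads. The Rag2 allele could bear on this count. In the GENCODE vM21 annotation Rag2 has 527 codons, and the bases from codon 353 to the stop make up 15.4% of its exonic length of 3424 bases. Without any read from them, a count would change by -0.24 on the log2 scale if reads fell evenly along the exons. Whether the allele still transcribes them was not tested.

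The reference sequence around the truncation is shown to place what the Rag2c/c allele lacks. It covers codons 343 to 362, in the last exon, at chr2:101630373-101630432 on the plus strand of GRCm38 (GENCODE vM21 transcript). Capitals mark the bases after codon 352.
Rag2: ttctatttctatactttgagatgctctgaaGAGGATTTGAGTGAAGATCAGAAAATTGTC

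Dntt had 13805, 8740, 8872, 14163 and 10473 normalized counts in Rag2c/c p53-/- lymphomas. Replicates 1 and 4 were the highest, and all 5 lay below the lowest thymus at 16482. The group mean was 11211 ± 2625 (SD, n = 5). The log2 fold change of -0.76 (SE 0.28, limma adjusted p = 0.0493) was under the 2-fold threshold, and the adjusted p lay between 0.00814 and 0.182 over the alternatives run.

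**Figure D1:**
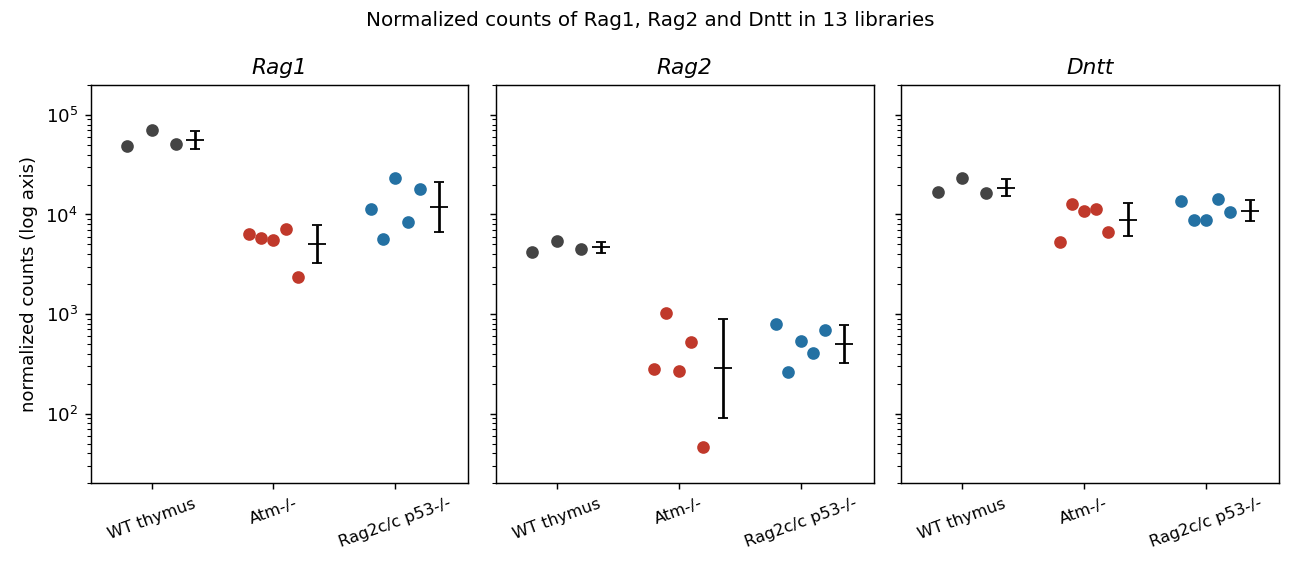
Normalized counts (log axis) of Rag1, Rag2 and Dntt in WT thymus (n = 3), Atm-/- lymphomas (n = 5) and Rag2c/c p53-/- lymphomas (n = 5). Each point is a library and the black marks are the mean ± SD of log2(value + 1); all lymphomas lie below all thymuses for each gene, and Rag2 is lowest at 46 in Atm-/- replicate 5.

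Exact permutation tests of single genes, which need no model across genes, were run for 9 comparisons and are given unadjusted. For each gene and each lymphoma group against WT thymus, the groups did not overlap and the two-sided exact p was 0.0357, the smallest that 5 against 3 libraries allow. Groups without overlap were common, at 51.3% of the 15872 genes tested for Atm-/- lymphomas and 43.9% for Rag2c/c p53-/- lymphomas, counting genes that were lower or higher.

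Between the lymphoma groups no gene of the 3 was called by limma, and 1, Rag1, had an unadjusted p under 0.05. In this comparison 3.51% of all genes tested were called higher in Atm-/- lymphomas and 4.33% lower. Rag1 was lower in Atm-/- lymphomas by 1.22 on the log2 scale, with the groups overlapping, since Rag2c/c p53-/- replicate 2 stood at 5620 and Atm-/- replicates 1, 2 and 4 stood above it. Its limma adjusted p was 0.0503 (SE 0.37), just over the threshold, and its unadjusted two-sided exact permutation p was 0.0317. Rag1 passed under some alternatives, for example with size factors recomputed from the 13 columns (adjusted p = 0.0483) or without Rag2c/c p53-/- replicate 2 (adjusted p = 0.0154), and the range over the alternatives was 0.00555 to 0.113. Rag2 had a log2 fold change of -0.82 (SE 0.62, limma adjusted p = 0.444, exact permutation p = 0.365) and Dntt one of -0.31 (SE 0.25, limma adjusted p = 0.473, exact permutation p = 0.317). For Rag2 it was -0.17 without Atm-/- replicate 5 and -1.28 without Atm-/- replicate 2, and for Dntt -0.12 without Atm-/- replicate 1. With array weights it was -1.75 for Rag2 (limma adjusted p = 0.0785). These values do not show that the groups are alike. From high to low, the order of the group means was WT thymus, Rag2c/c p53-/- and Atm-/- lymphomas for each gene, and the lymphoma groups overlapped in each.

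Ratios of genes within a library do not depend on the scaling of libraries. In WT thymus there were 2.86, 3.07 and 3.10 Rag1 normalized counts for each of Dntt. In Atm-/- lymphomas the ratio was 1.20, 0.45, 0.51, 0.63 and 0.36, below every thymus. In Rag2c/c p53-/- lymphomas it was 0.81, 0.64, 2.65, 0.60 and 1.73, also below every thymus, with replicate 3 closest to it. The mean log2 ratio of Dntt to Rag1 was higher than in WT thymus by 2.39 in Atm-/- lymphomas and by 1.48 in Rag2c/c p53-/- lymphomas. The two-sided exact permutation p was 0.0357 in each, the smallest possible, and 0.0714 after adjustment over 6 tests of ratios, so neither passed. The lymphoma groups differed by 0.91 (exact permutation p = 0.135, adjusted p = 0.202), and by 0.58 without Rag2c/c p53-/- replicate 3.

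Rag1 exceeded Rag2 by 11.5, 13.1 and 11.3-fold in normalized counts in WT thymus. In Atm-/- lymphomas this was 22.6, 5.62, 20.7, 13.7 and 51.8-fold, on both sides of the thymuses. In Rag2c/c p53-/- lymphomas it was 14.2, 21.6, 43.7, 20.7 and 26.1-fold, above every thymus. The mean log2 ratio of Rag2 to Rag1 was lower than in WT thymus by a difference of -0.98 in Rag2c/c p53-/- lymphomas (exact permutation p = 0.0357, adjusted p = 0.0714) and of -0.58 in Atm-/- lymphomas (exact permutation p = 0.5, adjusted p = 0.54). The latter was -0.20 without Atm-/- replicate 5 and -0.996 without Atm-/- replicate 2 (adjusted p = 0.8 and 0.0857). The difference between the lymphoma groups was 0.40 (exact permutation p = 0.54, adjusted p = 0.54), and left-out libraries moved it between -0.02 (Atm-/- replicate 2) and 0.78 (Atm-/- replicate 5), with 0.18 without Rag2c/c p53-/- replicate 3.

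**Figure D2:**
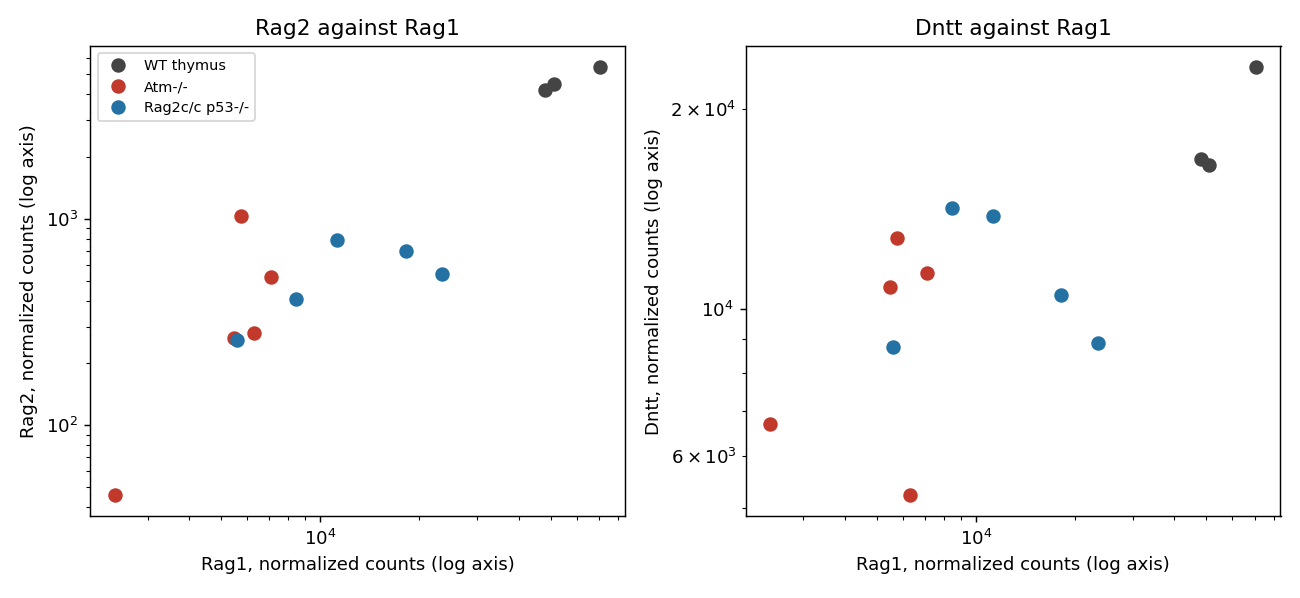
Rag2 (left) and Dntt (right) against Rag1 in normalized counts on log axes, with a point for each of the 13 libraries colored by group. The 3 thymuses lie apart at the upper right, and among lymphomas Atm-/- replicate 5 is lowest for Rag1 (2383) and Rag2 (46).

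Over the 10 lymphomas, Rag1 and Rag2 levels were related before but not after correction for 3 relations. None of the relations allowed for whether the worth of 1 read could be estimated in a library. Pearson's r of log2(value + 1) was 0.71 (permutation p = 0.0263, adjusted p = 0.079) and Spearman's rho was 0.67 (permutation p = 0.0388, adjusted p = 0.117). Without the 2 libraries farthest from the median of Rag1, Atm-/- replicate 5 and Rag2c/c p53-/- replicate 3, r was 0.49 (exact permutation p = 0.231) and rho was 0.57 (exact permutation p = 0.151), over 8 libraries and a narrower span of Rag1. As deviations from the group means r was 0.69 (permutation p = 0.0301, adjusted p = 0.0904). Rag2 and Dntt had r = 0.64 (permutation p = 0.0839, adjusted p = 0.126) and rho = 0.59 (permutation p = 0.0796, adjusted p = 0.119). Without the 2 libraries farthest in Rag2, r was 0.52 (exact permutation p = 0.181). Rag1 and Dntt had r = 0.32 (permutation p = 0.374, adjusted p = 0.374) and rho = 0.32 (permutation p = 0.364, adjusted p = 0.364), and r was 0.27 without the 2 farthest in Rag1 (exact permutation p = 0.547). As deviations from the group means r was 0.59 for Rag2 and Dntt (permutation p = 0.0817, adjusted p = 0.123) and 0.11 for Rag1 and Dntt (permutation p = 0.745, adjusted p = 0.745).

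The genes most like each member were ranked by Pearson's r of deviations from the group means over the 13 libraries, among 11852 other tested genes with a mean of at least 50. For Rag1 these were Ncoa1 (r = 0.90), Epb4.1 (0.89), Mxi1 (0.88), 1810034E14Rik (0.86) and Frat1 (0.86). For Rag2 they were Acss2 (r = 0.96), Mblac2 (0.93), Camkk1 (0.93), Cxx1a (0.92) and Slc16a6 (0.89). For Dntt they were Mzt1 (r = 0.91), Fjx1 (0.89), Mplkip (0.88), 1110065P20Rik (0.88) and C78339 (0.87). Rag2 came at place 167 for Rag1 (r = 0.69), and Dntt at place 4395 (r = 0.16). Acss2, which makes acetyl-CoA from acetate, fell in both lymphoma groups, with log2 fold changes of -2.36 for Atm-/- (limma adjusted p = 0.000205) and -1.21 for Rag2c/c p53-/- (limma adjusted p = 0.017). These likenesses are descriptions, and they too did not allow for whether the worth of 1 read could be estimated.

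Within 200 kb of Rag1 and Rag2 lie 3 other tested genes. B230118H07Rik, on the minus strand from 101560781 to 101649532, spans both. Its exons share 208 bases with those of Rag2 on the opposite strand and 80 with those of Rag1 on the same strand. It had 582, 468 and 506 normalized counts in WT thymus and 85, 222, 70, 122 and 17 in Atm-/- lymphomas. For Rag2c/c p53-/- lymphomas the values were 250, 361, 472, 403 and 279. It fell in Atm-/- lymphomas (log2 fold change -2.72, SE 0.58, limma adjusted p = 0.00225) and was not called in Rag2c/c p53-/- lymphomas (-0.59, SE 0.58, limma adjusted p = 0.45). The lymphoma groups did not overlap and the gene was called between them (-2.13, SE 0.50, limma adjusted p = 0.0158). Of all genes tested, 8.33% had no overlap between the lymphoma groups, counting genes that were lower or higher. The kit keeps the strand, but the strand setting of the counting was not given in the sources used here, so reads in the shared bases may belong to either gene. Traf6, which encodes a ubiquitin ligase of immune receptor signaling, was not called in either group (-0.71 and -0.41). Prr5l fell from a mean of 75.7 in WT thymus to 10 and 10.6 (log2 fold changes -3.32 and -2.71, limma adjusted p = 0.00418 and 0.0157).

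Around Dntt 4 other genes within 200 kb were tested, and their log2 fold changes were of a size with that of Dntt. In Atm-/- lymphomas Zfp518a was at -1.14 and Blnk, an adaptor of B cell receptor signaling, at -1.01, and both were called, while Ccnj at -0.70 and Tm9sf3 at -0.70 were not. In Rag2c/c p53-/- lymphomas Zfp518a was called at -1.15, and Ccnj (-0.88), Blnk (-0.66) and Tm9sf3 (-0.64) were not. Copy number was not measured here.

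**Figure D3:**
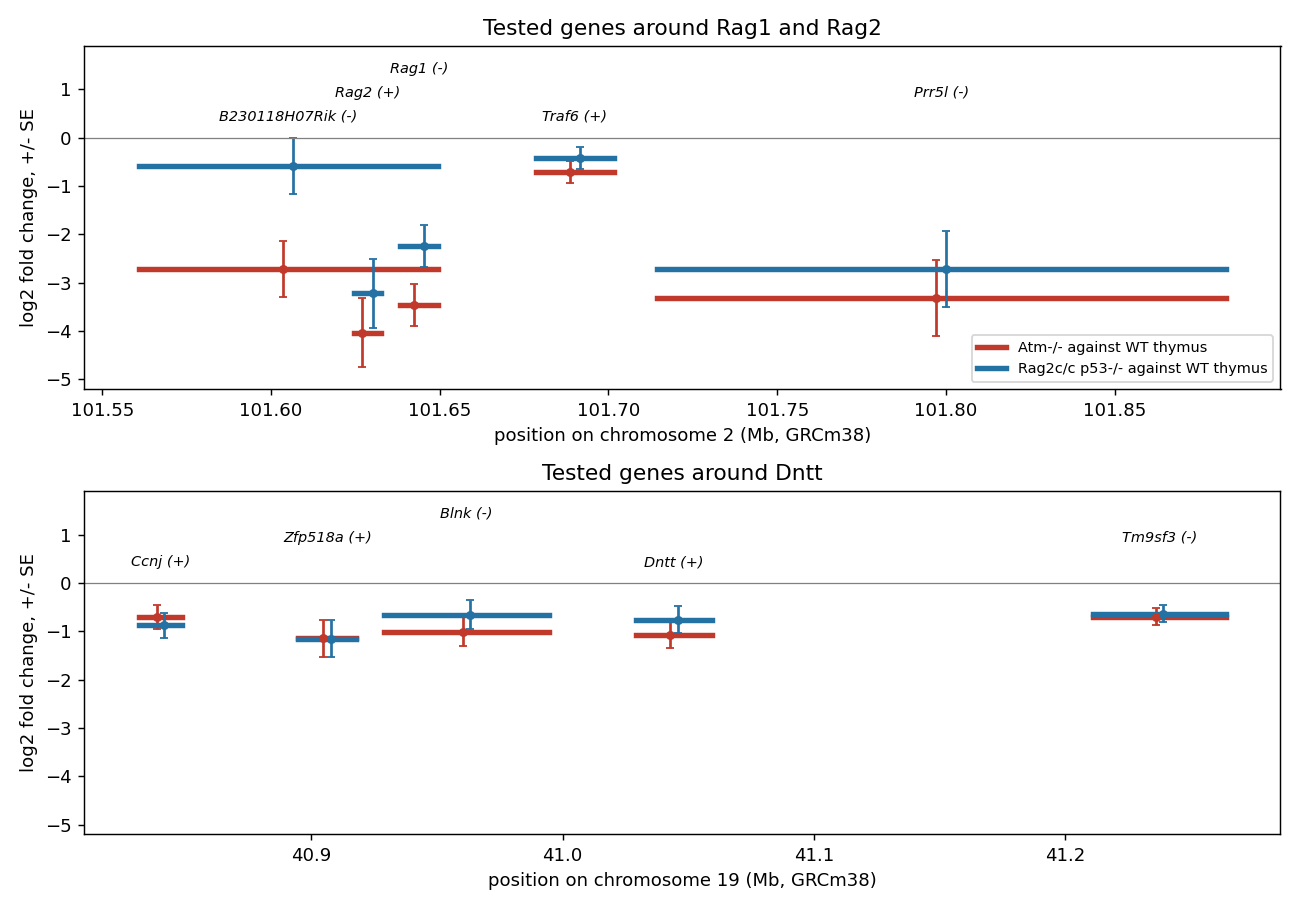
Log2 fold changes (± SE) of Rag1, Rag2, Dntt and the tested genes within 200 kb, drawn as bars over each gene's span in GRCm38, for Atm-/- (red) and Rag2c/c p53-/- lymphomas (blue) against WT thymus. Rag1 and Rag2 lie between -4.04 and -2.24, beside Prr5l at -3.32 and -2.71, B230118H07Rik at -2.72 and -0.59 and Traf6 at -0.71 and -0.41, and Dntt at -1.07 and -0.76 among neighbours from -1.15 to -0.64.

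Promoters are shown as the sequence before each gene. All 3 genes matched the RefSeq table (GRCm38.p6), and the 250 bases before each RefSeq start, which for Rag1 and Rag2 is not the start given above, were searched on both strands for 8 motifs. Capitals mark the RUNX core TGTGGT, the CCAAT box, the Ikaros core TGGGAA and the TATA box TATAAA. The windows are chr2:101649533-101649782 on the minus strand for Rag1, chr2:101624462-101624711 on the plus strand for Rag2 and chr19:41029025-41029274 on the plus strand for Dntt. The Rag1 window lies directly before the start of B230118H07Rik at 101649532 as well.
Rag1: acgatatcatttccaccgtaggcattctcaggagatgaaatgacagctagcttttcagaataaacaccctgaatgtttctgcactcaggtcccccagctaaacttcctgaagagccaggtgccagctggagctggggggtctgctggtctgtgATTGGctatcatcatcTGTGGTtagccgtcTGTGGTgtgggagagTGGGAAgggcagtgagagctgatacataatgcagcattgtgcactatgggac
Rag2: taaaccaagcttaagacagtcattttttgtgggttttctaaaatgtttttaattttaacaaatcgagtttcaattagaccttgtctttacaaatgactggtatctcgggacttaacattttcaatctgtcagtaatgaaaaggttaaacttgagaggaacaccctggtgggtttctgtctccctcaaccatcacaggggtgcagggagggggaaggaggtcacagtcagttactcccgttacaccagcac
Dntt: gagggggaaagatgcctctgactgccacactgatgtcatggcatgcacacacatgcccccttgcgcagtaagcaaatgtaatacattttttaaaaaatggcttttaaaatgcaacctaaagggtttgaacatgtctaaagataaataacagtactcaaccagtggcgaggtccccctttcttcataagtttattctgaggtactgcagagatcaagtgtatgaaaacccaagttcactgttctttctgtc

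The Rag1 window held 2 RUNX cores, 1 CCAAT box and 1 Ikaros core, and the windows of Rag2 and Dntt held none of these. Of 32851 promoter windows, 14.05% held a RUNX core, 33.9% a CCAAT box and 21.6% an Ikaros core. The E-box CANNTG, found in 66.2% of windows, occurred 3 times for Rag1, 1 time for Rag2 and 3 times for Dntt. The ETS core GGAA (93.5% of windows) occurred 3, 2 and 1 times and GATA (53.6%) 4, 1 and 1 times in Rag1, Rag2 and Dntt. The MYB core AACNG (74.2%) was absent from the Rag1 window and occurred 2 times in each of the others, and TATAAA (12.4%) was in none. The GC content was 50.8% for Rag1, 41.2% for Rag2 and 41.6% for Dntt. Each TGGGAA also counts as a GGAA. A match is not a binding site.

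Factors known to act on these loci were read as a list. In Atm-/- lymphomas 4 of the 19 listed were called lower and 0 higher, and in Rag2c/c p53-/- lymphomas 3 were lower and 0 higher. Beside this and the lists below stand the shares of all genes tested, 17.0% lower and 12.6% higher in Atm-/- lymphomas and 13.9% lower and 9.77% higher in Rag2c/c p53-/- lymphomas. The median log2 fold change was -0.52 and -0.40, against -0.02 over all genes tested in each comparison. Satb1, a chromatin organizer of thymocytes, fell in both groups (-1.48, limma adjusted p = 0.000538, and -1.31, limma adjusted p = 0.00166). The ETS factor Elf1 fell likewise (-1.55, limma adjusted p = 0.00088, and -1.05, limma adjusted p = 0.0123). Foxo1 (-1.11, limma adjusted p = 0.0121) and Bcl11b (-1.20, limma adjusted p = 0.000108) fell in Atm-/- lymphomas and had -0.40 and -0.64 in Rag2c/c p53-/- lymphomas. Between the lymphoma groups neither was called, with -0.71 for Foxo1 (limma adjusted p = 0.114) and -0.56 for Bcl11b (limma adjusted p = 0.0229, under the 2-fold threshold). Zfp608, a repressor of Rag genes in thymocytes, fell in Rag2c/c p53-/- lymphomas (-3.73, limma adjusted p = 0.013) from a WT mean of 177 and had -2.66 in Atm-/- lymphomas (limma adjusted p = 0.0512). Tcf7, the most abundant of the list, had means of 49485 in WT thymus, 49477 in Atm-/- lymphomas and 47087 in Rag2c/c p53-/- lymphomas.

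Among 12 partners of the RAG proteins and factors of their turnover, 1 was called in each lymphoma group. This was Skp2, part of the ubiquitin ligase that degrades RAG2 as cells enter S phase, which rose by 1.22 in Atm-/- lymphomas (limma adjusted p = 0.000755) and 1.096 in Rag2c/c p53-/- lymphomas (limma adjusted p = 0.00202). The list's median log2 fold change was 0.24 and 0.18. Ddb1, its most abundant gene over all libraries, had means of 10128, 11350 and 9910.

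End joining and the break response held 15 genes in the table of 16 listed, since Paxx was not matched. In Atm-/- lymphomas 2 were called higher and 4 lower, and in Rag2c/c p53-/- lymphomas 2 higher and 2 lower. Atm itself, given above, is on this list and counts as lower in both groups. The median was 0.07 and -0.07. Xrcc6, which encodes Ku70 and was the most abundant, rose by 1.30 (limma adjusted p = 0.000164) and 1.16 (limma adjusted p = 0.00052). Prkdc, the catalytic subunit of DNA-PK, fell by 1.35 (limma adjusted p = 0.000182) and 1.21 (limma adjusted p = 0.000579). Dclre1c, which encodes the hairpin opener Artemis, fell by 1.82 in Atm-/- lymphomas (limma adjusted p = 0.0034) and had -0.998 in Rag2c/c p53-/- lymphomas (limma adjusted p = 0.0732). Mdc1 fell (-1.19) and H2afx rose (1.02) in Atm-/- lymphomas, and Nbn rose (1.05) in Rag2c/c p53-/- lymphomas.

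Dntt belongs to the X family of polymerases, of which 4 were listed and tested. Dntt was the only one called in Atm-/- lymphomas. In Rag2c/c p53-/- lymphomas Polm, its closest relative, fell from a WT mean of 833 to 252 (log2 fold change -1.74, limma adjusted p = 0.00804). In Atm-/- lymphomas Polm had a mean of 835, with libraries spread from 298 to 1583 (log2 fold change -0.28). Polm was called between the lymphoma groups (1.46, limma adjusted p = 0.0263). The list's median was -0.33 and -0.77.

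Markers of thymocyte stages were read next. Some genes of the double positive and mature lists were left out after the results had been seen. Of 9 genes of the double positive stage, 5 were called lower in Atm-/- lymphomas and 4 in Rag2c/c p53-/- lymphomas, with 0 higher and medians of -1.56 and -0.91. Cd8a, Cd8b1, Cd1d1, Themis and Cd28 fell in Atm-/- lymphomas (-1.49, -1.66, -1.996, -1.28 and -2.13). Cd1d1, Ccr9, Themis and Cd28 fell in Rag2c/c p53-/- lymphomas (-1.84, -1.51, -1.30 and -2.11). The summed level was 105357, 151822 and 107679 in WT thymus, 43055, 71633, 68109, 30542 and 56833 in Atm-/- lymphomas, and 92647, 90306, 63972, 52989 and 66265 in Rag2c/c p53-/- lymphomas. Every lymphoma lay below every thymus in this sum. Cd8a was the most abundant gene over all libraries, and none of the 9 was at 0 throughout a group. The part of stage in the levels of Rag1, Rag2 and Dntt was not tested.

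Of 7 genes of the mature stage, 2 were called lower in Atm-/- lymphomas (Ccr7 at -3.64 and S1pr1 at -4.11). In Rag2c/c p53-/- lymphomas 4 were lower, Ccr7 (-4.39), S1pr1 (-5.61), Zbtb7b (-2.42) and Itgb7 (-1.47), and Runx3 was higher (1.36). The medians were -0.83 and -2.18. The summed level was 13020, 13222 and 13151 in WT thymus, 14356, 11076, 8690, 12244 and 13507 in Atm-/- lymphomas, and 8984, 5192, 10975, 5127 and 6974 in Rag2c/c p53-/- lymphomas. Il7r was the most abundant over all libraries. Of 11 genes of the double negative stage, 3 were called lower in Atm-/- lymphomas (Kit at -3.27, Bcl11a at -3.08 and Hhex at -1.41) and 2 in Rag2c/c p53-/- lymphomas (Bcl11a at -3.98 and Hhex at -1.62), with 0 higher and medians of -0.13 and -0.23. Their sum was 19322, 21183 and 21563 in WT thymus, 63794, 118922, 6873, 64320 and 8402 in Atm-/- lymphomas, and 16857, 18692, 34377, 34547 and 21321 in Rag2c/c p53-/- lymphomas, so in each group lymphomas stood on both sides of the thymuses. The most abundant, Notch1, had means of 10112, 29587 and 16405 and was not called. None of the 9 pan T cell genes was called in either comparison with WT thymus by limma, while 1 in Atm-/- lymphomas and 3 in Rag2c/c p53-/- lymphomas had an unadjusted p under 0.05, and 1 in each had an adjusted p under 0.05 with a change under 2-fold. Thy1, the most abundant, had means of 22080, 28899 and 25890.

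Other cell types were read from their markers. Some genes of the B cell list were left out after the results had been seen. B lineage cells also use the recombinase. Of 6 B cell genes tested, 5 were called lower in Atm-/- lymphomas and 6 in Rag2c/c p53-/- lymphomas, with medians of -2.57 and -2.91. Both groups had lower Ms4a1 (-4.14 and -4.59), Cd79b (-3.65 and -2.86), Cd79a (-2.38 and -2.97), Vpreb1 (-2.76 and -1.64) and Ebf1 (-1.81 and -1.70). Pax5 was called in Rag2c/c p53-/- lymphomas (-3.41) and had -2.28 in Atm-/- lymphomas. The summed level of the 7 in the table was 1568, 1248 and 1447 in WT thymus, 171, 245, 199, 98 and 176 in Atm-/- lymphomas, and 292, 422, 141, 101 and 172 in Rag2c/c p53-/- lymphomas. Cd79b was the most abundant over all libraries, and none was at 0 throughout a group.

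Fibroblast genes went the other way, with 4 of 5 called higher in each group. Col1a2, the most abundant over all libraries, rose from a mean of 30.7 to 4475 and 358 (log2 fold changes 7.07 and 3.44). The summed level was 167, 179 and 168 in WT thymus, 5352, 3472, 5012, 15814 and 8391 in Atm-/- lymphomas, and 1079, 581, 1942, 1182 and 829 in Rag2c/c p53-/- lymphomas. Of 6 myeloid genes Lyz2 (1.28), Itgam (1.21) and Cd68 (1.66) were called higher and Mpo lower (-5.33) in Atm-/- lymphomas, and Cd68 was higher (1.49) and Mpo lower (-5.73) in Rag2c/c p53-/- lymphomas. Their sum was 3721, 3486 and 3795 in WT thymus, 8599, 6081, 8180, 10195 and 8952 in Atm-/- lymphomas, and 5122, 3559, 5312, 7434 and 6525 in Rag2c/c p53-/- lymphomas, with Lyz2 the most abundant. Of 6 genes of thymic epithelium 3 were lower in Atm-/- lymphomas and 4 in Rag2c/c p53-/- lymphomas, among them Foxn1 (-3.98 and -2.75) and Krt8 (-2.12 and -3.19). Psmb11 was listed at 0 in all 5 Atm-/- lymphomas. Their sum was 1058, 725 and 1049 in WT thymus, 230, 189, 389, 609 and 452 in Atm-/- lymphomas, and 287, 1320, 904, 508 and 1029 in Rag2c/c p53-/- lymphomas, with Epcam the most abundant over all libraries. Of 4 endothelial genes tested, Egfl7 was higher (2.22 and 2.56) and Cdh5 and Kdr were lower in Rag2c/c p53-/- lymphomas (-2.93 and -2.55), with Pecam1 the most abundant. Of 4 erythroid genes tested, Klf1 was higher (1.79 and 2.004), with Hbb-bs the most abundant. None of 6 genes of dividing cells was called against WT thymus by limma, while 4 in Atm-/- lymphomas and 3 in Rag2c/c p53-/- lymphomas had an unadjusted p under 0.05. All 4 and 2 of the 3 also had an adjusted p under 0.05 and rose by less than 2-fold. Top2a, the most abundant over all libraries, had means of 14013, 20784 and 16921. The part of these cells in the levels of Rag1, Rag2 and Dntt was not tested.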

How the data were processed

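RNA libraries of 13 samples were read from the deposited table. The deposited values are scores, normalized counts that the authors divided by size factors and rounded to whole numbers. The submitters' processing notes name STAR 2.4.0g1, Picard and DESeq2 1.6.3. Columns of the authors' own comparisons (fold changes and p-values) were not used. The design allowed for raw counts with edgeR, which these are not, so limma 3.58.1 (R 4.3.3, trend and robust) was fitted to log2(value + 1) of 13 libraries in 3 groups, over the 15872 genes that reached 10 in 3 or more libraries. P-values were adjusted by Benjamini-Hochberg, and the pipeline was tested on simulated data. Single values were tested by exact permutation (SciPy 1.17.1) and relations with 100000 resamples. Named genes were taken from those called in each list (at most 6 by size), its most abundant gene, tested genes within 200 kb and the 5 most alike. In the fibroblast and thymic epithelium lists not every called gene was named with its fold change. Members and lists were chosen with earlier results of these data known. Alternatives covered scaling, filter, pseudocount, moderation, weights, groups fitted and each library left out. Some genes of the double positive, mature and B cell lists of the design are not reported here and were left out of the counts, medians and sums of these 3 lists after the results had been seen.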

Additional observations from a re-analysis of the deposited data

Results flagged for a closer look

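Rag1 in Atm-/- lymphomas had a sample far from the others. Replicate 5, at 2383 normalized counts, lay below the other 4 by a gap that was 0.764 of the range of the group on the log2 scale. It was also the lowest lymphoma for Rag2 (46) and for B230118H07Rik (17). Without it the Rag1 and Rag2 calls against WT thymus were kept, and Dntt was no longer called. This was the only flag among 12 groups of 5 libraries tested, and chance flags about 1 in 20.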

How the results depend on the processing

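Rag1 and Rag2 were called lower in each lymphoma group against WT thymus under every alternative run. Leaving out each library in turn gave log2 fold changes of -3.58 to -3.19 (Rag1) and -4.50 to -3.39 (Rag2) in Atm-/- lymphomas, and of -2.49 to -1.98 and -3.38 to -2.99 in Rag2c/c p53-/- lymphomas. For Dntt they were -1.20 to -0.88 in Atm-/- lymphomas, where the call was lost without WT thymus replicate 2 and without Atm-/- replicates 1 or 5, and -0.85 to -0.60 in Rag2c/c p53-/- lymphomas, where it was never called. Between the lymphoma groups they were -1.48 to -0.94 for Rag1, -1.28 to -0.17 for Rag2 and -0.44 to -0.12 for Dntt. Rag1 was called there with recomputed size factors (-1.23), equal column totals (-1.23), a pseudocount of 5 (-1.22) and array weights (-1.78). It was also called without Rag2c/c p53-/- replicate 2 (-1.48). The cause was not tested. The difference between lymphoma groups in the Rag2 to Rag1 ratio, which did not pass, ranged from -0.02 to 0.78 and changed sign without Atm-/- replicate 2 (-0.0186). With libraries left out, the genes called numbered 3401 to 4902, 2505 to 3956 and 934 to 1315 in the 3 comparisons, all within 1.5 times of 4687, 3750 and 1244. No paired analysis was possible because the labels give the groups no shared replicate numbers. The depth of 7 libraries could not be read from the rounded values.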
